A study of Mus musculus with 2 samples.

Results

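The genes described here encode the ligands, receptors, extracellular antagonists and Smads of the transforming growth factor beta (TGF-beta) superfamily, read in mouse limb buds with and without Bhlha9. They were taken by name: every probe set annotated with a single gene symbol that belongs to one of these families was kept, whatever its signal. This gave 106 of the 45101 probe sets on the array, for 54 of the 18193 genes that had a single-symbol probe set. The study compared RNA of the whole limb bud from wild-type embryos with that from Bhlha9 knockout embryos, both of the C57BL/6 line and both at E10.5 (day of gestation), with 1 array for each genotype. The labels name no other allele and no agent. The labels do not give the number of embryos pooled, how the Bhlha9 allele was made, or the share of fore and hind limb buds.

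Ligands of this superfamily bind complexes of type I and type II serine/threonine kinase receptors, and the type I receptor then phosphorylates receptor-regulated Smads. Bone morphogenetic proteins (BMPs) and many growth differentiation factors (GDFs) act mainly through Smad1, Smad5 and Smad9, whereas TGF-betas, activins and Nodal act mainly through Smad2 and Smad3. Both kinds of Smad enter the nucleus with Smad4. Secreted antagonists such as gremlin, noggin, chordin and follistatin bind ligands outside the cell, and Smad6 and Smad7 damp the signal inside it. In the early limb bud, BMP signals restrain the apical ectodermal ridge, the epithelium that drives outgrowth. Grem1, made by the mesenchyme, relieves this restraint and links the ridge to the posterior Shh signal. Bhlha9 encodes a basic helix-loop-helix factor, a class of proteins that bind E-boxes.

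Signals are MAS 5.0 intensities on a linear scale, 1 per probe set, and a gene was read by its brightest probe set. A signal was taken as detected above the 40th percentile of its array, which was 41.2 for wild-type and 41.8 for knockout. Log2 ratios are written as knockout minus wild-type and were computed for genes detected on both arrays, and a gene detected on only 1 array has a bound against the floor of the other. With 1 array per genotype there is no replicate, no biological error and no test, so "higher" and "lower" describe these 2 RNA samples. The disagreement of probe sets for the same gene, over 5440 genes, gave an SD of 0.28 for 1 log2 ratio, which covers measurement within an array only. The probe set of Bhlha9 was not detected on either array (7.87 and 1.70) and does not check the labels. All 12 limb mesenchyme markers were detected on both arrays, and all 12 were lower on the knockout array, 6 of them at least 2-fold. Their log2 ratios ran from -0.03 for Hoxd13, well within the measurement SD, to -1.37 for Msx1. Their summed signal was 37477 in wild-type and 21005 in knockout tissue. Markers of several other tissues were higher there: 11 of 11 of liver, 9 of 11 of neural tube and neurons, 7 of 11 of muscle and somite, 6 of 11 of ridge ectoderm and 3 of 5 of heart and mesothelium by at least 2-fold, with 1 of 5 of blood. Of the ridge markers, Fgf8 read 445 and 492 (0.15) and Fgf4 read 86.9 and 58.8 (-0.56), so that list was not higher throughout. Of 8 endothelial markers, 0 were at least 2-fold higher and 2 at least 2-fold lower. Of the 7 detected on both arrays, 6 had negative ratios and Emcn a positive one (0.44). In a bulk sample, fewer cells of a type and less RNA per cell cannot be told apart.

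Most of the pathway read alike on both arrays, and the few larger differences lay among secreted proteins. Grem1, the BMP antagonist of limb mesenchyme, was 2.47-fold lower in the knockout sample. The antagonists Fst and Bmper were 2.90-fold and 2.52-fold higher, and the ligand Gdf10 was at least 11.3-fold higher. These were the 4 member genes past 2-fold, out of 40 detected on at least 1 array: 3 higher and 1 lower. The background over all 13088 detected genes was 4.15% for a 2-fold higher and 2.65% for a 2-fold lower signal, against 7.50% and 2.50% of the members, so these small counts lie near the background. The 34 members detected on both arrays had 17 positive and 17 negative ratios and a median log2 ratio of 0.02, beside -0.01 for all 11491 genes detected on both. Of these 34 members 76.5% lay within 0.5 of zero, and 71.7% of all genes did. The remaining members were 3 genes detected on the wild-type array only, 3 on the knockout array only and 14 under both floors.

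**Figure D1:**
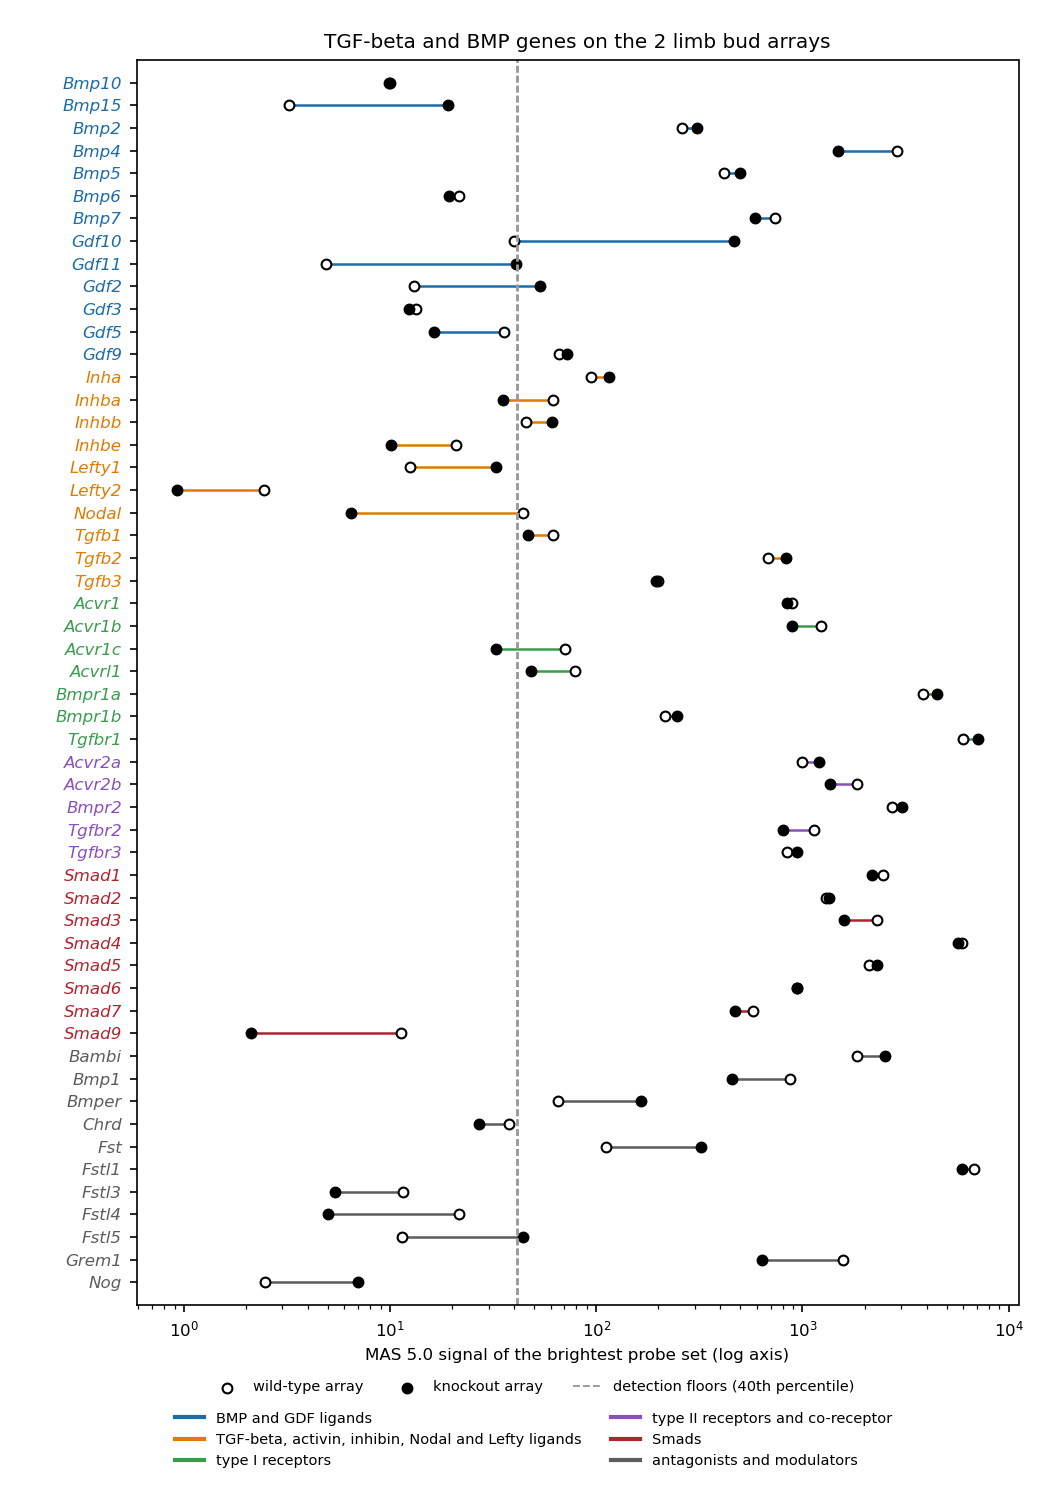
MAS 5.0 signal (log axis) of the brightest probe set of each of the 54 genes, by class; open circles are the wild-type array, filled circles the knockout array, and the dashed lines are the detection floors of 41.2 and 41.8. Most pairs of points right of the floors nearly touch, while Grem1 and Bmp4 stand lower and Gdf10, Fst and Bmper higher on the knockout array.

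The 4 genes past 2-fold all encode secreted proteins. Among the 20 receptors and Smads, 19 were detected and 0 passed 2-fold, with ratios from -0.71 to 0.27 in the 18 detected on both arrays. Among the 34 ligands, antagonists and modulators, 21 were detected and 4 passed 2-fold. The median absolute log2 ratio was 0.21 in the first set and 0.36 in the second, beside 0.32 over all genes. The difference between these sets was not tested. The scatter of all genes depended on signal. Fst, Bmper and Gdf10 lie in the fifth of genes with the second lowest mean signal, where 8.29% of all genes were at least 2-fold higher. Grem1 lies in the fifth with the second highest signal, where 1.15% of all genes were at least 2-fold lower. Bmp4 lies in that with the highest signal, where the share was 0.649%. All detected receptors and Smads except Acvr1c, Acvrl1, Bmpr1b and Smad7 share the signal range of Grem1 or that of Bmp4. In these ranges 0.841% and 0.153% of all genes were at least 2-fold higher. For most receptors and Smads, a count of 0 past 2-fold thus lies near the background at their signal. The part of signal level in the difference between the sets was not tested.

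**Figure D2:**
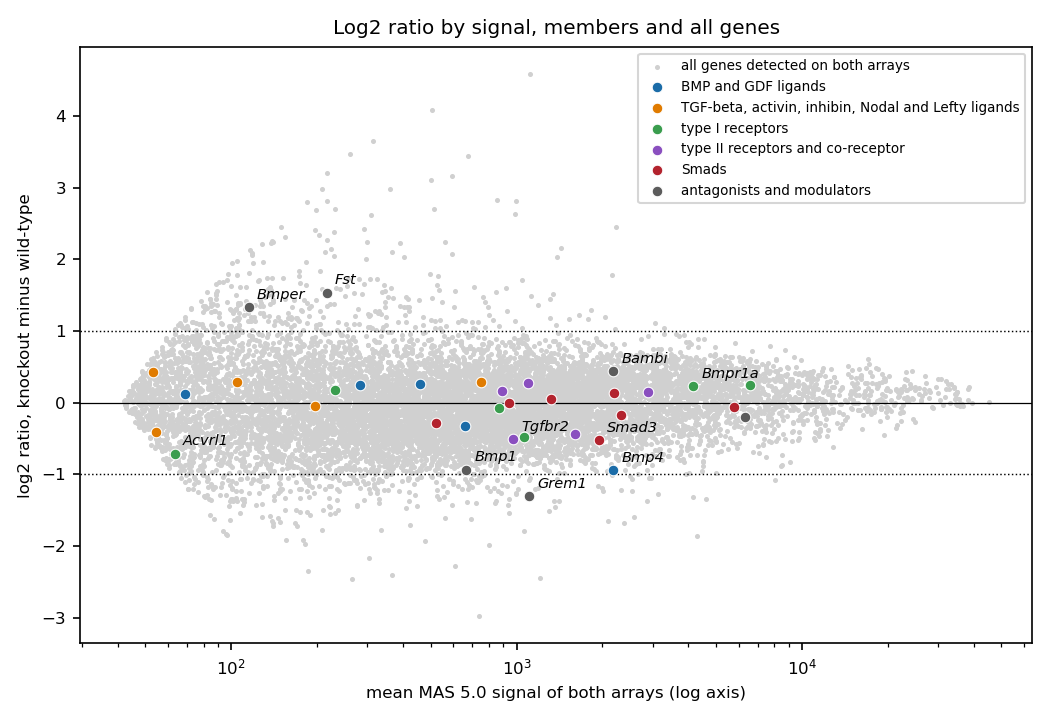
Log2 ratio (knockout minus wild-type) against the mean signal of both arrays (log axis); grey points are all 11491 genes detected on both arrays, coloured points the 34 members detected on both, and dotted lines mark 2-fold. Receptors and Smads sit close to zero within the grey cloud, Grem1 at -1.30 lies at its lower edge, and Fst and Bmper lie at 1.53 and 1.34 where the cloud is wide.

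The BMP ligands of the limb bud did not all read lower. Bmp4, made in ridge and mesenchyme, read 2862 in wild-type and 1489.5 in knockout tissue, which is 1.92-fold lower (log2 ratio -0.94) and just inside the 2-fold limit. Bmp2, its closest relative, went the other way by less than the measurement SD, from 260 to 307 (0.24). Bmp7, also a ridge and mesenchyme ligand, read 734 and 588 (-0.32) by its brightest probe set. Its other 2 probe sets read 510 and 293 (-0.80), and 243 and 141 (-0.79), so all 3 were lower on the knockout array. Bmp5 was at 416 and 499.7 (0.27), and its further probe sets disagreed, one at 0.56 and one at -0.65. Of the main limb bud ligands, then, Bmp4 and Bmp7 read lower, and the brightest probe sets of Bmp2 and Bmp5 lay within the measurement SD of zero. The lower Bmp4 signal was seen beside a median log2 ratio of -0.96 over the 12 limb mesenchyme markers. These ran from -0.03 for Hoxd13 to -1.37 for Msx1. The part of tissue makeup in the Bmp4 reading was not tested.

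Among the GDFs, Gdf10, a ligand close to Bmp3, stood out with 39.8 on the wild-type array, just under the floor, and 465 on the knockout array. Its log2 ratio of at least 3.50 is a bound and rests on a single probe set. Because it was detected through the knockout array alone, its direction was fixed by that detection. Gdf2 (BMP9), a circulating ligand made in liver, was also detected only on the knockout array, at 13.1 and 53.2, which is at least 1.29-fold higher. Summed signals of the liver markers were 379 and 34313 on the same arrays, with 9 of 11 markers (all but Apoa2 and Rbp4) under the wild-type floor. The neural markers summed to 526 and 3716, and 6 of 11 (Sox1, Pax6, Neurod1, Neurog2, Olig2 and Foxa2) were under the wild-type floor. Their part in the Gdf10 and Gdf2 readings was not tested. Gdf9, best known from the oocyte, was near the floor at 66.2 and 72.0 (0.12). Bmp6, Bmp10, Bmp15, Gdf3, Gdf5 and Gdf11 were under both floors. Gdf5 marks the joint interzones of later limbs.

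Upstream sequences are shown for the genes with the larger differences, because Bhlha9 belongs to a class of factors that bind the E-box. RefSeq promoter windows (build GRCm38.p6) were matched for 37 of the 54 genes, in 44 windows. Fst had none in the table used. Each line gives the 250 bases before the annotated start, 5′ to 3′ on the strand of the gene, in lower case. Capitals mark matches to the E-box, CANNTG, or to the GC-rich element that BMP-activated Smads bind, GGCGCC. Both patterns read the same on either strand. The windows are chr14:46390670-46390919 (minus strand) for Bmp4, chr14:33923337-33923586 (plus) for Gdf10, chr9:23222826-23223075 (plus) for Bmper and chr2:113758649-113758898 (minus) for Grem1.
Bmp4: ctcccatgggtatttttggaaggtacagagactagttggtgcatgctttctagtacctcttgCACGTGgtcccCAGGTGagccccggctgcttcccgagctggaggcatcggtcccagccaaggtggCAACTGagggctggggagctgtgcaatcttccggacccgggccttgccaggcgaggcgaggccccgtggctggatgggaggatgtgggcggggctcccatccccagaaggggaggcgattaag
Gdf10: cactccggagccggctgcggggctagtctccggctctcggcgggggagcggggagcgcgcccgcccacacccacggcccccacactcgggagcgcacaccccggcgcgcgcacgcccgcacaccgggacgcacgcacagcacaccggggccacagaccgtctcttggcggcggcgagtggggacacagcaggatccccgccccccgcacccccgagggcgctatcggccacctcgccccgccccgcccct
Bmper: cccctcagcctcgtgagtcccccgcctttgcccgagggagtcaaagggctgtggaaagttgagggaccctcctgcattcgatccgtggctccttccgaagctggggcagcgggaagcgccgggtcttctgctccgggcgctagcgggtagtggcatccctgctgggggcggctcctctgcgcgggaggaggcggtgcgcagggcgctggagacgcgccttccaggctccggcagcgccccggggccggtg
Grem1: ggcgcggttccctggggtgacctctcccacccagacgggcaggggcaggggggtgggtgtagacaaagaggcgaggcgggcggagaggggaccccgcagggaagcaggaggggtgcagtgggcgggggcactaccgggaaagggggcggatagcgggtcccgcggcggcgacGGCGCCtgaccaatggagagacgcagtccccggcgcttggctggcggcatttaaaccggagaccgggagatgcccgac

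The Bmp4 window held 3 E-boxes. The first, CACGTG, began 188 bases before the start. The next, CAGGTG, began 177 bases before it, and the last, CAACTG, 123 bases before it. Those of Gdf10, Bmper and Grem1 held 0. The Grem1 window held 1 GGCGCC, beginning 78 bases before the start. Of all 32851 windows of this length in the table, 66.2% held an E-box and 9.59% held GGCGCC. Of the 44 member windows, 43.2% and 15.9% did. The 4 windows are rich in G and C, at 63.2% for Bmp4, 71.6% for Bmper, 72.0% for Grem1 and 78.8% for Gdf10. These matches describe letters in a short window and say nothing of binding.

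The TGF-beta and activin ligands showed no difference past 2-fold. Tgfb2, which takes part in mesenchyme condensation, was read by 4 probe sets, and all were higher on the knockout array. They went from 677 to 831 (0.30), from 444 to 635 (0.51), from 323 to 556 (0.78) and from 70.7 to 128 (0.86). Tgfb3 was level at 200.3 and 194 (-0.04). Tgfb1, which blood and endothelial cells express, was near the floor at 62.0 and 46.8 (-0.41). Inha, the inhibin alpha subunit, was at 94.7 and 116 (0.29). The activin subunit Inhbb was at 45.4 and 61.2 (0.43). Inhba, the other activin subunit, was detected on the wild-type array only, at 61.5 and 35.2, at least 1.47-fold lower. Nodal, the ligand of gastrulation and left-right patterning, lay just above the wild-type floor at 44.3 and at 6.45 on the knockout array, a bound of 1.06-fold. Inhbe and the Nodal antagonists Lefty1 and Lefty2 were under both floors.

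Among the type I receptors 0 of 7 passed 2-fold, and the readings of Bmpr1a and Bmpr1b were within the measurement SD of zero. Bmpr1a, the BMP receptor needed in limb mesenchyme and ridge, read 3833 and 4499 (0.23) by its brightest probe set. Of its 6 probe sets, 5 were detected on both arrays, with further ratios of 0.55, 0.52, 0.01 and -0.38. Bmpr1b, which acts in cartilage condensation, read 216 and 245 (0.18). A second Bmpr1b probe set was detected on the knockout array only, at 15.1 and 56.7. Acvr1, a further BMP type I receptor, read 886 and 845 (-0.07), with -0.39 by its second probe set. Tgfbr1, the TGF-beta type I receptor, read 5988 and 7132 (0.25). A second Tgfbr1 probe set was detected on the knockout array only, at 34.1 and 64.7. The activin counterpart of Tgfbr1, Acvr1b, read 1231 and 887 (-0.47). Acvr1c was detected on the wild-type array only, at 70.6 and 32.8, at least 1.69-fold lower. Acvrl1, an endothelial receptor, read 78.8 and 48.1 (-0.71), and its second probe set lay at the floor with 43.4 and 42.5 (-0.03). The endothelial markers summed to 6036 and 4972, with 2 of 8 at least 2-fold lower and Tie1 under the knockout floor; their part in the Acvrl1 reading was not tested.

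Type II receptors, which bind ligand and activate the type I partner, were all detected on both arrays and 0 of 5 passed 2-fold. Bmpr2, the BMP type II receptor, read 2732 and 3041 (0.15), while its dimmer probe sets gave -0.40 and -0.78. The activin receptors differed in sign, but Acvr2a lay within the measurement SD of zero. Acvr2a read 995 and 1202 (0.27), and Acvr2b read 1837 and 1365 (-0.43), with -0.58 by its second probe set. Tgfbr2, the TGF-beta type II receptor, read 1139 and 802 (-0.51). Tgfbr3, the co-receptor betaglycan, read 838 and 939 (0.16). The 2 receptors of the TGF-beta complex itself, Tgfbr1 and Tgfbr2, had ratios of opposite sign by their brightest probe sets, but that of Tgfbr1 lay within the measurement SD.

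The Smads had the smallest median absolute log2 ratio of the 6 classes, 0.14. Smad4, the common partner, read 5905 and 5692 (-0.05), and its other 2 probe sets gave -0.14 and -0.10. Among the BMP-specific Smads, Smad1 read 2466 and 2185 (-0.17), with -0.07 and -0.68 by further probe sets. Smad5 read 2096 and 2308 (0.14), with -0.51 and -0.06 by further probe sets, so its sign depends on the probe set. Smad9 was under both floors. On the TGF-beta side, Smad2 read 1300.2 and 1347 (0.05) and 0.23 by its second probe set. Smad3 had the largest difference of the class, 2288 and 1595 (-0.52), and a dimmer probe set gave 108 and 54.3 (-0.998). A further probe set was detected on the knockout array only, at 10.9 and 42.5, and the mean over all its probe sets turned the ratio to 0.15. The inhibitory Smad6, itself transcribed in response to BMP, was level at 939.7 and 938. Smad7, the other inhibitory Smad, read 573 and 470.5 (-0.28), but 167 and 249 (0.58) by a probe set of a kind prone to cross-hybridisation.

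Among the antagonists and modulators, Grem1 and follistatin moved in opposite directions. Grem1 read 1575 in wild-type and 638 in knockout tissue (-1.30), from a single probe set. The 12 limb mesenchyme markers had a median of -0.96 on the same arrays, from -0.03 for Hoxd13 to -1.37 for Msx1. The part of tissue makeup in the Grem1 reading was not tested. Fst, which binds activins and BMPs, read 111 and 321 (1.53). Its second probe set was under the wild-type floor at 23.8 and read 81.0 on the knockout array, at least 0.98 on the log2 scale. Because that probe set was detected through the knockout array alone, its direction was fixed by that detection. Bmper, a secreted protein that binds BMPs and modulates them, read 65.4 and 165 (1.34), from 1 probe set. Of the other extracellular BMP antagonists, Nog and Chrd were under both floors, with wild-type signals of 2.46 and 37.7. Grem1 was therefore the only detected member among these 3 direct BMP antagonists. Muscle and somite markers, whose tissue also makes Fst, summed to 1664 and 4010 on the same arrays. Myod1 was under the wild-type floor and Pax7 under both. That list was not higher throughout: Lbx1 read 236 and 136 (-0.80), and Tcf15 read 415 and 408 (-0.02). The part of these tissues in the Fst reading was not tested.

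Bmp1, despite its name a metalloproteinase that cleaves procollagen and chordin, read 872 and 457 (-0.93), and its second detected probe set gave 186 and 125 (-0.57). It and Bmp4 lay closest to the 2-fold limit among the genes that did not pass it. Bambi, a membrane pseudoreceptor that dampens BMP and TGF-beta signals and is often transcribed with Bmp4, read 1842 and 2508 (0.45), opposite in sign to Bmp4. Fstl1, a secreted follistatin-like protein of mesenchyme, read 6768 and 5909 (-0.20), and 0.08 by its second probe set. Fstl5 was detected on the knockout array only, at 11.4 and 44.1, a bound of 1.07-fold. Fstl3 and Fstl4 were under both floors.

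Where a member had at least 2 probe sets detected on both arrays, the brightest pair had the same sign for 13 of 17 genes, or 76.5%, beside 69.4% of 5440 genes overall. The 4 that disagreed were Bmpr2, Smad5, Smad7 and Fstl1. Tgfb2, Bmp7, Acvr1, Acvrl1, Acvr2a, Acvr2b, Bmp1, Smad1, Smad2, Smad3 and Smad4 had 1 sign in all probe sets detected on both arrays, whereas a dimmer probe set of Bmp5 and of Bmpr1a went against the rest. Grem1, Bmp4, Bmper and Gdf10 were among the 23 members with a single probe set, so their readings have no second measurement on the array.

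**Figure D3:**
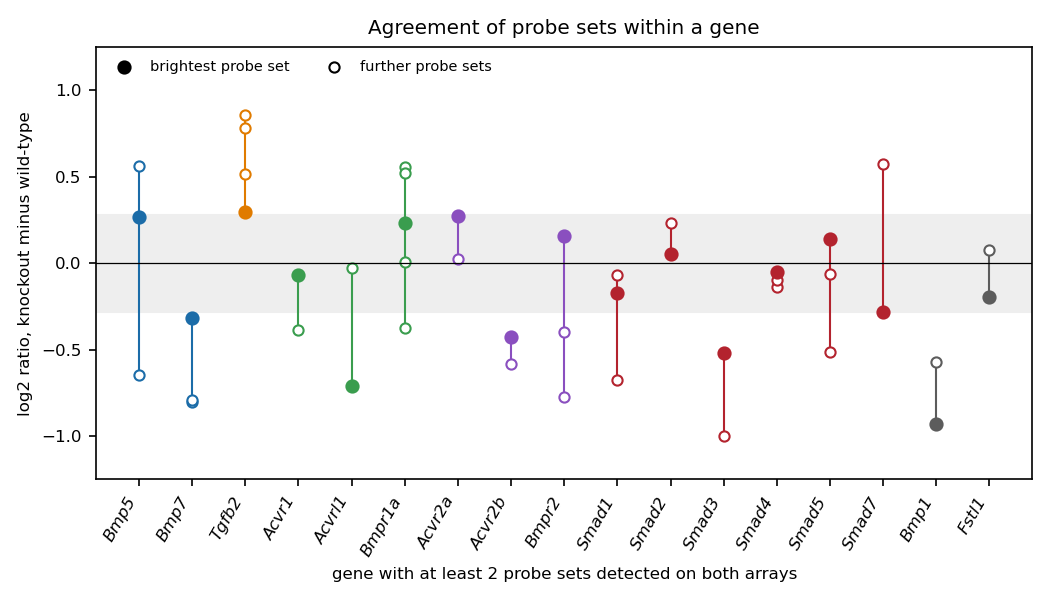
Log2 ratio (knockout minus wild-type) of each probe set detected on both arrays, for the 17 genes with at least 2 of them; filled points are the brightest probe set, open points the others, lines their range, and the grey band 1 measurement SD (0.28) either side of zero. All 4 Tgfb2 points lie above the band, all 3 Bmp7 points lie below it, and Bmp5, Bmpr1a, Bmpr2, Smad5, Smad7 and Fstl1 have points on both sides of zero.

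Pathway genes outside these families were read from further lists. The 22 intracellular regulators, such as ubiquitin ligases and Smad corepressors, were all detected on both arrays, with a median log2 ratio of 0.05. Of these, 0 passed 2-fold, beside 4.15% higher and 2.65% lower of all detected genes, so that count lies near the background. The ligases Smurf1 and Smurf2, which target Smads and receptors for degradation, were at 0.39 and 0.36. The ratios farthest from zero were those of Pmepa1 (-0.91), a TGF-beta induced inhibitor, Zfp423 (-0.84), a BMP-Smad partner, and Tab1 (-0.84), an activator of the kinase Map3k7. Of 30 extracellular genes measured, 23 were detected, 1 was at least 2-fold higher and 1 lower, again beside 4.15% and 2.65%. The higher one was Sostdc1, a secreted antagonist of BMP and Wnt signals, with 74.2 and 385 (2.38). Its second probe set was detected only on the knockout array, at 5.06 and 131. The lower one was Kcp, a chordin-like protein that enhances BMP signals, with 1203 and 513 (-1.23). The BMP-binding proteins Chrdl1, Twsg1 and Crim1 were at -0.14, 0.27 and 0.16, and the BMP co-receptor Rgmb was at -0.03. Dimmer probe sets detected on both arrays gave -0.51 and 0.79 for Chrdl1, from -0.46 to 0.93 for Rgmb, 0.82 for Crim1 and 0.32 for Twsg1. A pair of further Twsg1 probe sets were detected on the wild-type array only.

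Genes known as targets of these signals did not share a direction. Of 19 measured, all detected on both arrays, 4 were at least 2-fold higher and 2 lower, beside 4.15% and 2.65% of all detected genes. The median log2 ratio was 0.25. The Id genes, direct BMP targets that encode inhibitors of basic helix-loop-helix factors, read higher by their brightest probe sets. Id1 went from 2932 to 3494 (0.25), Id2 from 4203 to 7469 (0.83) and Id3 from 3234 to 4410 (0.45). Id4 went from 179 to 383 (1.10). The ratio of Id1 lay within the measurement SD of zero. The second probe set of Id2 gave 0.29 and the third -1.22, while those of Id4 gave 0.96 and -0.25. Msx1, a homeobox gene that responds to BMP in limb mesenchyme, was lower by both probe sets, from 4137 to 1597 (-1.37) and from 872 to 271 (-1.69). Its relative Msx2 was at -0.24, and at 0.95 by a dim probe set. Atoh8, a basic helix-loop-helix gene, went from 149 to 59.4 (-1.32). Gata3, Dlx5 and Tbx2 were higher at 1.44, 1.35 and 1.28. Msx1 and Bmp4 were thus lower in the same sample in which the brightest probe sets of Id2 and Id3 read higher by more than the measurement SD. Msx1 also stands among the limb mesenchyme markers and Dlx5 among the ridge markers. The ridge markers summed to 1897 and 4208, with Cdh1 at 488 and 1602. Fgf8 was at 445 and 492, and Fgf4 at 86.9 and 58.8. The part of tissue makeup in the Msx1 and Dlx5 readings was not tested.

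**Figure D4:**
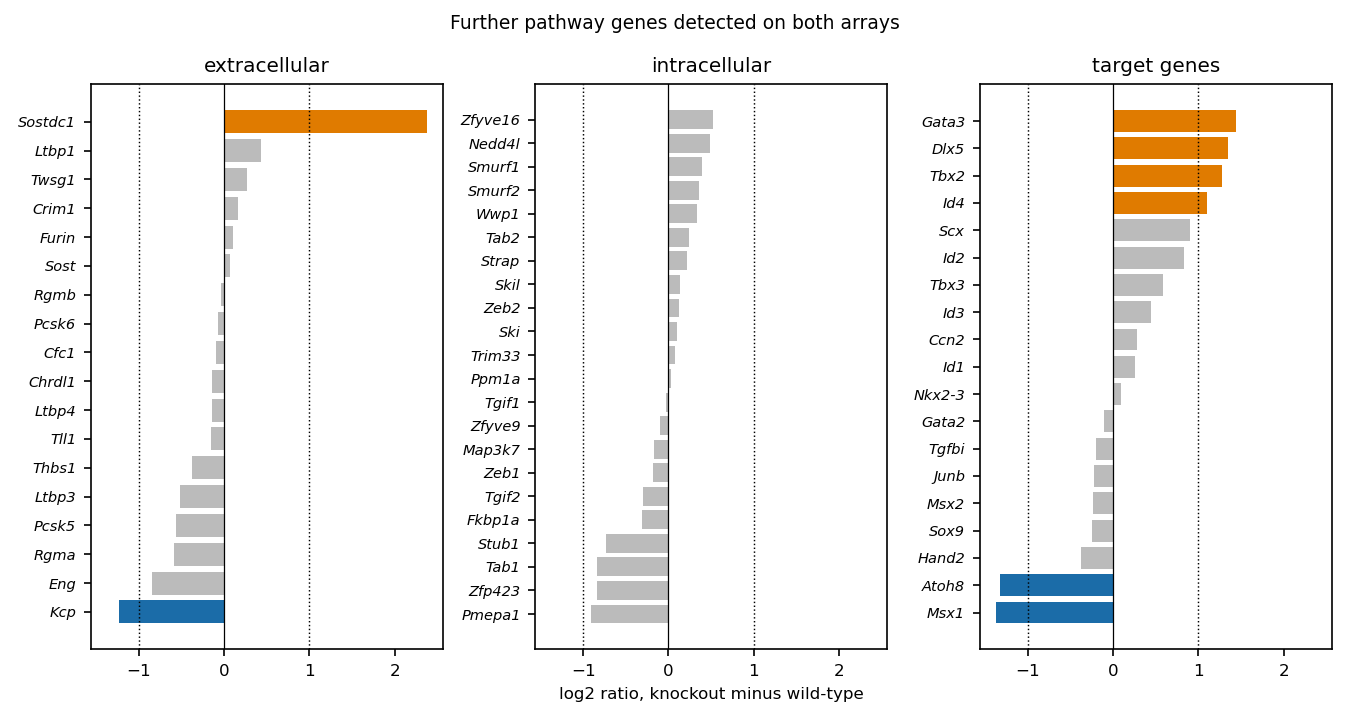
Log2 ratio (knockout minus wild-type) of further pathway genes detected on both arrays, as bars from zero, with 2-fold marked by dotted lines, orange bars at least 2-fold higher and blue bars at least 2-fold lower. Intracellular regulators all stay inside the dotted lines, and the target genes run from Msx1 at -1.37 to Gata3 at 1.44. The difference between the lists was not tested.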

How the data were processed

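Gene expression was measured on Affymetrix Mouse Genome 430 2.0 arrays from 200 ng of total RNA per sample, per the labels' protocols. The deposited values are linear intensities, which the authors summarised with MAS 5.0, per the series' design text; such signals are scaled on each array separately and are noisy near zero. The 64 control probe sets were left out, and 932 with several symbols and 9160 unnamed were not used for genes. Symbols came from the platform annotation, and all 54 member symbols matched RefSeq by Entrez identifier. Signals under the 40th percentile were raised to it. Genes were counted at 2-fold, against all genes detected on at least 1 array. Every detected member was named, with all detected probe sets for 11 limb genes and those past 2-fold, as were the genes past 2-fold of the further lists and 11 others; Pmepa1, Zfp423 and Tab1 were named after their values were seen. The members, lists and rules were chosen with earlier results of these data known. Mstn, Lrrc32 and 1 further listed gene were not analysed here. The steps were tested on simulated data. Alternatives covered scaling (limma 3.58.1 in R 4.3.3), floors, probe sets and folds. Python 3.11.15, numpy 2.4.6, pandas 2.3.3 and matplotlib 3.10.9 were used. The number of arrays limits the precision.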

Additional observations from a re-analysis of the deposited data

How the results depend on the processing

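Grem1 was at least 2-fold lower, and Gdf10, Fst and Bmper higher, under median centring and under quantile and loess normalization. The same held for a pseudocount of 32 without a floor, the mean over probe sets, and probe sets without shared probes. The last 2 settings could not change Grem1, Gdf10 and Bmper, which have 1 probe set each. Of these 2, only the mean could change Fst, and it gave 1.65. Median centring only subtracted a constant of -0.01 from every ratio. At a 20th percentile floor, 8 members were higher and 6 lower, while 11.3% and 8.26% of all genes passed 2-fold. At a 60th percentile floor, 1 was higher (Gdf10, at least 1.47 on the log2 scale); Fst had a bound of 0.93 there and Bmper no ratio. At 1.5-fold 5 members were lower (Grem1, Bmp4, Bmp1, Acvr1c and Acvrl1), at 3-fold 1 was higher (Gdf10) and 0 lower. The median log2 ratio was 0.0945 after loess, -0.0426 at the 60th percentile floor and -0.0363 with the pseudocount. Over the genes with a mean signal above the floors, a choice made after the data were seen, it was -0.00241. Bmp4 stayed between -0.96 and -0.93 and Grem1 between -1.30 and -1.23. Of 304 member ratios under 8 alternatives, 24 moved by over 1 measurement SD. Median centring could move none that far, and leaving out probe sets with shared probes changed no member ratio, so the 304 include ratios that could not move. The sign turned under at least 1 alternative for 8 of 40 members: Acvr1, Smad6, Tgfb3, Bmpr2, Smad3, Smad5, Smad7 and Tgfb1. The mean over probe sets gave -0.34 for Bmpr2, 0.40 for Acvr1, 0.66 for Tgfbr1, 0.81 for Tgfbr3 and 0.72 for Bmpr1b; the cause was not tested. Loess moved the shares of all genes higher and lower to 4.91% and 1.94%. Leaving out a replicate was not run, as each genotype is 1 array. No paired analysis was possible because each genotype has 1 array.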

Other observations

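A pair of probe sets annotated with several symbols, and so left out above, also name members. One shared by Cers1 and Gdf1 read 107 in wild-type and 54.8 in knockout tissue, and one shared by Orc4 and Acvr2a read 35.0 and 73.9. The gene behind either signal cannot be read from these values.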
